A study of Mus musculus with 6 samples.

Results

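The transcripts described here are those of the adult hemoglobin genes and of Alas2 in the mouse forebrain. They are 7 of the 23282 gene entries counted, taken by symbol: the alpha-globin genes Hba-a1 and Hba-a2, the beta-globin genes Hbb-bs, Hbb-bt, Hbb-b1 and Hbb-b2, and Alas2. Each of the 7 was present and passed the filter on low counts. They were selected with the measured difference between the diets in these libraries already known, so their levels, ratios and fold changes are given as a description without a test.

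C57BL/6J wild-type male mice, 8–10 weeks old, received normal chow (NCD) or an HFD, in which fat supplied 60% of the energy, over 10 days. The tissue was the forebrain without olfactory bulbs and cerebellum, taken as hemispheres, and the study's question was how a short HFD changes brain transcripts. There were 3 libraries for each diet, and they were made with QuantSeq, which primes on the poly(A) tail and reads the 3′ end of a transcript. Whether the mice were perfused or blood was otherwise removed is not given in the sources used here, nor is it stated that each library came from a different mouse, so the spread between libraries may be partly technical.

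Hemoglobin, the oxygen carrier of red blood cells, is built from alpha and beta chains that each hold a heme. Alas2 is the erythroid form of 5-aminolevulinate synthase, the enzyme that starts heme synthesis in red cell precursors, while Alas1 does this in other cells. Circulating mammalian red cells have no nucleus, but the youngest of them, the reticulocytes, still carry globin mRNA. Globin mRNA has also been described in some neurons and glia, and brain tissue that contains blood contains globin mRNA from that blood.

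On GRCm38 with the GENCODE vM21 annotation, both alpha genes lie on the forward strand, Hba-a1 at chr11:32283511-32284465 and Hba-a2 at chr11:32296489-32297298, with 12023 bases between them. The beta genes lie on the reverse strand, Hbb-bs at chr7:103826534-103828096 and Hbb-bt at chr7:103812524-103813996, with 12537 bases between them. Each of these 4 genes has 3 exons. Alas2 lies at chrX:150547375-150570638 on the forward strand and has 11 exons. Hbb-b1 and Hbb-b2 are names from the beta-globin haplotype of other strains and have no entry in this annotation. C57BL/6J carries the haplotype with Hbb-bs and Hbb-bt.

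The copies are almost the same in sequence, and this bears on what their separate counts mean. Over the coding sequence, Hba-a1 and Hba-a2 differed at 1 of 426 bases, and Hbb-bs and Hbb-bt differed at 1 of 441 bases. The last 75 coding bases of each gene, as long as 1 sequencing read of this study, are shown because they hold that base, which is in capitals.
Hba-a1: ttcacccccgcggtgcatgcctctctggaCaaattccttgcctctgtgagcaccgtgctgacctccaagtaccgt
Hba-a2: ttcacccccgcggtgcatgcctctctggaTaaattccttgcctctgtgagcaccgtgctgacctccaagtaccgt
Hbb-bs: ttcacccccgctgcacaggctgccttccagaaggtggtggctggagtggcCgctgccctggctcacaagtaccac
Hbb-bt: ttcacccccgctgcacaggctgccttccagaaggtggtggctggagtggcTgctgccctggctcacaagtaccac

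A read from most of the coding sequence therefore matches both copies. Of the 75-base windows of the GENCODE transcripts, 389 of the 625 of Hba-a1 and 389 of the 480 of Hba-a2 occurred in the other alpha transcript. For the beta genes, 356 of the 554 windows of Hbb-bs and 356 of the 629 of Hbb-bt were shared. Nearer the poly(A) end, in the last 300 bases, 151 of 226 windows of Hba-a1 and 135 of 226 of Hba-a2 were shared, against 67 of 226 for Hbb-bs and 66 of 226 for Hbb-bt. By this measure the beta copies were easier to tell apart at the end that QuantSeq reads than the alpha copies. The authors counted both unique and multiple alignments, so the split of counts between copies is uncertain.

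The stretches upstream of the globin genes are shown as a description of the genes, and their part in the counts was not tested. These are the 210 bases before the start of each gene in RefSeq (GRCm38.p6), which is not always the GENCODE start, on the strand of the gene. Capitals mark 4 motifs on either strand: GATAA, found in sites bound by GATA factors such as the erythroid regulator Gata1, CACCC, found in sites of KLF factors such as Klf1, CCAAT, the CCAAT box, and TATAA, the core of the TATA element.
Hba-a1, chr11:32283462-32283671: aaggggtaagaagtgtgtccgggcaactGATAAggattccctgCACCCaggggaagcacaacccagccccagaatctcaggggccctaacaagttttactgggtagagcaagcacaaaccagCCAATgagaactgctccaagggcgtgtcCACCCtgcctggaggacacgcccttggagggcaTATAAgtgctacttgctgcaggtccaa
Hbb-bs, chr7:103827929-103828138: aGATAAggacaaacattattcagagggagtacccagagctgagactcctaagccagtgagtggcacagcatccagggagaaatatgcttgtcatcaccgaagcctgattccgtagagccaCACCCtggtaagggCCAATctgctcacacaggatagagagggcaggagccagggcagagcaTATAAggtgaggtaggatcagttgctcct
Hbb-bt, chr7:103813924-103814133: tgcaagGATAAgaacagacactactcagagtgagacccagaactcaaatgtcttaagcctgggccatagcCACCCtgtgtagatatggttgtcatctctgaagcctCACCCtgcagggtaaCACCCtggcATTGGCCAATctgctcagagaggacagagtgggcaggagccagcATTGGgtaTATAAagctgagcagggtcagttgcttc

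Upstream, the alpha copies were identical at 247 of 247 bases compared, so only that of Hba-a1 is printed. At a shift of 1 base and without gaps, the beta copies were identical at 127 of 249 bases (51.0%). Since no gaps were allowed, a base present in only 1 copy puts the rest out of register and can lower this share. An alpha and a beta gene compared in the same way were identical at 32.1% to 32.4% of bases. All 4 globin genes held all 4 motifs in the 250 bases upstream. Among the 32851 promoters of the RefSeq table, 22.6% held the GATAA motif on either strand, 52.0% the CACCC motif, 33.9% the CCAAT motif and 22.8% the TATAA motif. In Hbb-bt a forward and a reverse CCAAT stand directly next to each other. Alas2 held 1 GATAA, 3 CACCC and 2 overlapping TATAA matches and no CCAAT. These matches describe letters in a window and were not tested as binding sites.

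Total counts ranged from 6842785 to 9689372 per library. The chi-square between libraries of the same diet, divided by its degrees of freedom, was between 3.47 and 16.0, so no library was a repeat of another. HFD replicate 3 stood farthest from the other HFD libraries, at 14.1 and 16.0. Without it are also given the summed globin level, the alpha to beta ratio and the fold changes of Hba-a1, Hba-a2, Hbb-bs and Hbb-bt. The same holds for the list genes that lost an unadjusted p under 0.05 without it. NCD replicate 3 likewise stood farthest from the other NCD libraries, at 9.26 and 12.7. The forebrain label was met by the neuronal genes Snap25, at 1387 ± 161 CPM (read counts scaled by TMM library size) in NCD and 1431 ± 104 CPM in HFD, and Slc17a7, at 281 ± 25.8 CPM and 273 ± 9.43 CPM (SD, n = 3 each). Of the 13771 genes tested between the diets, the quasi-likelihood test of edgeR called 0 (0%) at a Benjamini-Hochberg adjusted p under 0.05, with 507 genes (3.68%) at an unadjusted p under 0.05. DESeq2 called 2 genes and limma after quantile normalization 0.

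With the split of counts between the alpha copies uncertain, Hba-a1 had the most counts of the globin entries. Its CPM was 212, 277 and 288 in the NCD libraries, in the order of their replicate numbers, and 371, 303 and 421 in the HFD libraries. Each HFD library was above each NCD library, although HFD replicate 2 exceeded NCD replicate 3 by little. The mean was 259 ± 41.1 CPM in NCD and 365 ± 59.4 CPM in HFD (SD, n = 3 each). The fitted log2 fold change was 0.49 with a standard error of 0.13, a fold of 1.41.

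Hba-a2, the other alpha gene, had 108 to 131 counts in NCD and 129 to 163 in HFD. Its CPM was 13.3, 14.1 and 13.2 in NCD and 23.5, 14.1 and 21.4 in HFD. HFD replicates 1 and 3 were above all NCD libraries, while HFD replicate 2 lay just under the highest NCD library. The log2 fold change was 0.53 with a standard error of 0.19.

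Hbb-bs, the main beta gene of this strain, had 162, 189 and 149 CPM in NCD and 245, 182 and 315 CPM in HFD. The diets overlapped, since HFD replicate 2 was below NCD replicate 2. The mean was 167 ± 20.3 CPM in NCD and 247 ± 66.6 CPM in HFD (SD, n = 3 each), and the log2 fold change was 0.56 with a standard error of 0.16.

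Hbb-bt, the second adult beta gene, had 31.2, 38.2 and 32.9 CPM in NCD and 56.1, 43.5 and 65.2 CPM in HFD. Here the diets did not overlap. The mean was 34.1 ± 3.64 CPM in NCD and 54.9 ± 10.9 CPM in HFD (SD, n = 3 each), with a log2 fold change of 0.68 and a standard error of 0.15, a fold of 1.61.

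The entries Hbb-b1 and Hbb-b2 followed these genes closely. Hbb-b1 had 1298, 1719 and 1394 counts in NCD and 1664, 1634 and 2228 in HFD, where Hbb-bs had 1316, 1754 and 1419 and then 1702, 1661 and 2288. In every library Hbb-b1 held between 97.4% and 98.6% of the count of Hbb-bs, 18 to 60 counts fewer. Hbb-b2 had 232, 314 and 276 counts in NCD and 356, 365 and 428 in HFD, between 88.5% and 91.7% of the count of Hbb-bt. The log2 fold changes were 0.56 for Hbb-b1 and 0.71 for Hbb-b2, with standard errors of 0.16 and 0.15. The 4 beta entries are therefore not 4 separate measurements, and whether the same reads were counted under both names was not tested.

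Alas2 was near the limit of what this depth can measure. It had 20, 4 and 13 counts in NCD and 23, 16 and 14 in HFD, or 2.47, 0.431 and 1.37 CPM against 3.31, 1.75 and 1.92 CPM. The diets overlapped, and the lowest value, in NCD replicate 2, came from a library whose globin level was the highest of the NCD libraries. The log2 fold change was 0.71 with a standard error of 0.53. It moved to 0.28 without NCD replicate 2 and to 1.34 without NCD replicate 1. The last exon of Alas2, chrX:150570328-150570638, lies whole within an exon of Apex2 on the opposite strand, and whether the counting used strand is not given in the sources used here. Apex2, a DNA repair nuclease, had 13, 8 and 32 counts in NCD and 6, 16 and 9 in HFD, so the reads of both genes cannot be told apart with certainty.

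**Figure D1:**
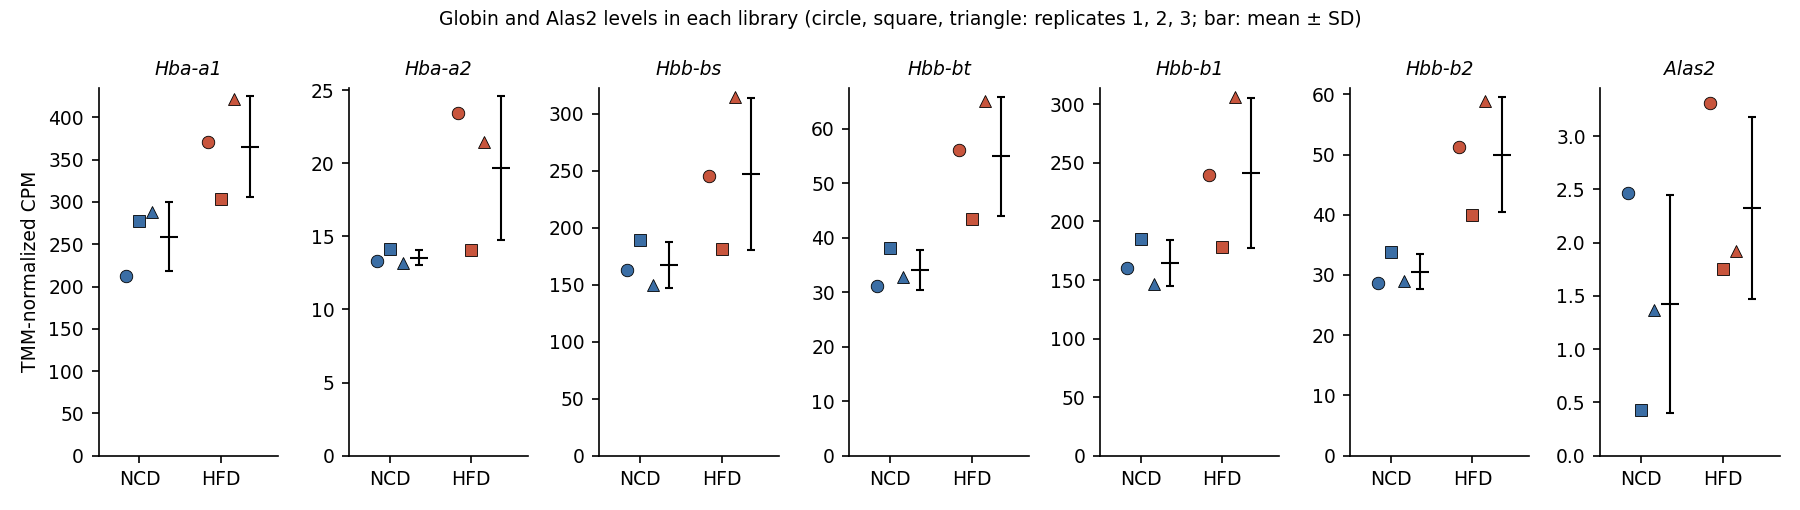
Level of each globin entry and of Alas2 in TMM-normalized CPM (vertical axes, each from 0) in the 3 NCD and 3 HFD libraries, with circles, squares and triangles for replicates 1, 2 and 3 and bars for the mean ± SD. HFD replicates 1 and 3 are above all NCD libraries for each of the 6 globin entries, while HFD replicate 2 is near the highest NCD value, for example 303 CPM against 288 CPM for Hba-a1.

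In 3 of the 7 entries, Hba-a1, Hbb-bt and Hbb-b2, all HFD libraries were above all NCD libraries. Among all genes tested this was so for 4.31%, and for 8.81% the diets did not overlap in either direction. Since the entries were chosen on this contrast and the beta entries are not separate measurements, nothing is read from that difference. All 7 fold changes were above 0, with a median of 0.56 on the log2 scale, against a median over all genes tested of -0.0025.

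Summed over the 6 globin entries, the level was 608, 738 and 659 CPM in NCD and 987, 761 and 1188 CPM in HFD. The means of 668 ± 65.6 CPM and 978 ± 214 CPM (SD, n = 3 each) gave a ratio of 1.46, or 0.55 on the log2 scale. Taking Hba-a1, Hbb-bs and Hbb-bt alone, which counts each beta gene once, gave 0.54. Without HFD replicate 3 the log2 ratio of the summed level was 0.39, and without HFD replicate 2 it was 0.70. The fitted log2 fold changes without HFD replicate 3 were 0.38 for Hba-a1, 0.46 for Hba-a2, 0.35 for Hbb-bs and 0.54 for Hbb-bt. The spread was wider among HFD than among NCD libraries, and HFD replicate 2 was at 761 CPM where the highest NCD library was at 738 CPM. In whole tissue, more cells that carry these transcripts and more transcript per cell cannot be told apart.

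Within every library the order of the 4 genes was the same by CPM and by CPM divided by the length of the coding sequence. Since QuantSeq reads the 3′ end, counts need not rise with length, and these lengths, 426 and 441 bases, are close. Hba-a1 came first with 498 to 989 CPM per kilobase over the 6 libraries, then Hbb-bs with 339 to 713, Hbb-bt with 70.8 to 148 and Hba-a2 with 30.9 to 55.1. Across libraries the ranges of Hba-a1 and Hbb-bs overlapped, and those of Hbb-bs, Hbb-bt and Hba-a2 did not overlap each other. The order rests on the split of counts between copies, which is uncertain.

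The ratio between the chains overlapped between the diets. Alpha counts (Hba-a1 and Hba-a2) over beta counts (Hbb-bs and Hbb-bt) were 1.16, 1.28 and 1.65 in NCD and 1.31, 1.41 and 1.17 in HFD. The mean of this count ratio was 1.37 ± 0.255 in NCD and 1.30 ± 0.122 in HFD (SD, n = 3 each). Divided by coding length it was 1.41 ± 0.264 and 1.34 ± 0.127. The high value was that of NCD replicate 3, and without it the difference between the diets changed sign. Without HFD replicate 3 the difference (HFD minus NCD) was -0.0051, against -0.070 with all libraries. Alpha globin alone was at 225, 291 and 301 CPM in NCD and 395, 317 and 443 CPM in HFD, without overlap. Beta globin was at 194, 227 and 182 CPM in NCD and 301, 225 and 380 CPM in HFD, where HFD replicate 2 was below NCD replicate 2.

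Hba-a2 made up a small share of the alpha counts in both diets. The share was 5.92%, 4.85% and 4.37% in NCD and 5.94%, 4.45% and 4.84% in HFD. The exact 95% binomial (Clopper-Pearson) intervals reached from 3.65% to 7.10% over the libraries, which cover counting error only. The difference between the diet means was 0.030 percentage points and changed sign without NCD replicate 2, NCD replicate 3 or HFD replicate 1.

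Hbb-bt made up 16.1%, 16.8% and 18.0% of the beta counts in NCD and 18.6%, 19.3% and 17.2% in HFD. HFD replicates 1 and 2 were above all NCD libraries, and HFD replicate 3, which had the most globin, was below NCD replicate 3. The intervals of the lowest library, 14.3% to 18.0%, and of the highest, 17.6% to 21.1%, overlapped. Such intervals cover counting error only, and their overlap is no test of a difference in share. The mean share was 17.0 ± 0.963% in NCD and 18.4 ± 1.11% in HFD (SD, n = 3 each). Counts of Alas2 were 12.7, 1.90 and 7.51 per 1000 beta counts in NCD and 11.0, 7.77 and 5.07 in HFD, so the HFD values lay within the NCD range.

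**Figure D2:**
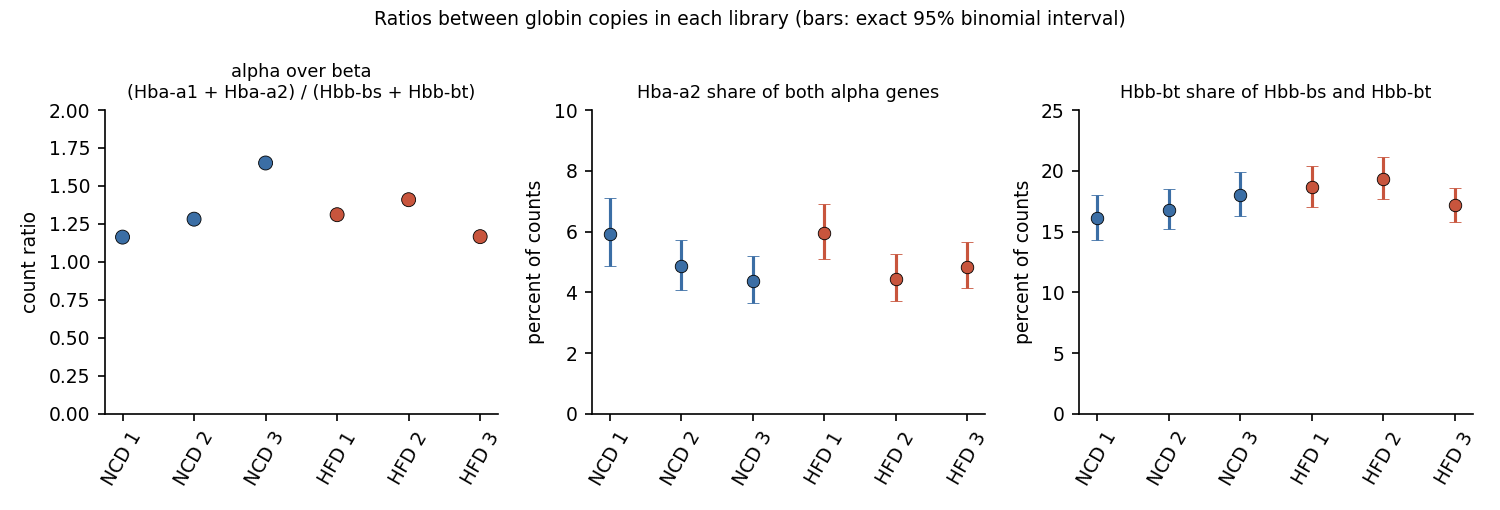
Ratio of alpha to beta counts (left), share of Hba-a2 in the alpha counts (middle) and share of Hbb-bt in the counts of Hbb-bs and Hbb-bt (right) in each library, with bars for the exact 95% binomial interval of a share. Alpha over beta lies between 1.16 and 1.65 with the diets intermixed, the Hba-a2 share between 4.37% and 5.94%, and the Hbb-bt share between 16.1% and 19.3%.

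The profile of the summed globin counts across the 6 libraries was compared with that of every gene tested, by the root mean square difference of log2 CPM after each gene's mean was removed. The 6 globin entries were between 0.0743 and 0.139 from it, and they are part of that sum. Alas2 was at 0.74, farther than the median of all genes (0.38) and than a flat profile (0.33). The nearest genes outside the group were 4933407K13Rik at 0.0758, Fap at 0.0794, Ifi203 at 0.0879, Pds5a at 0.10 and Stpg1 at 0.11. Fap is a serine protease of fibroblasts, Ifi203 is an interferon-inducible gene, and Pds5a takes part in sister chromatid cohesion. Apart from Pds5a, with 66 to 121 counts, these genes had 7 to 28 counts per library. At such counts a match over 6 libraries has little precision.

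**Figure D3:**
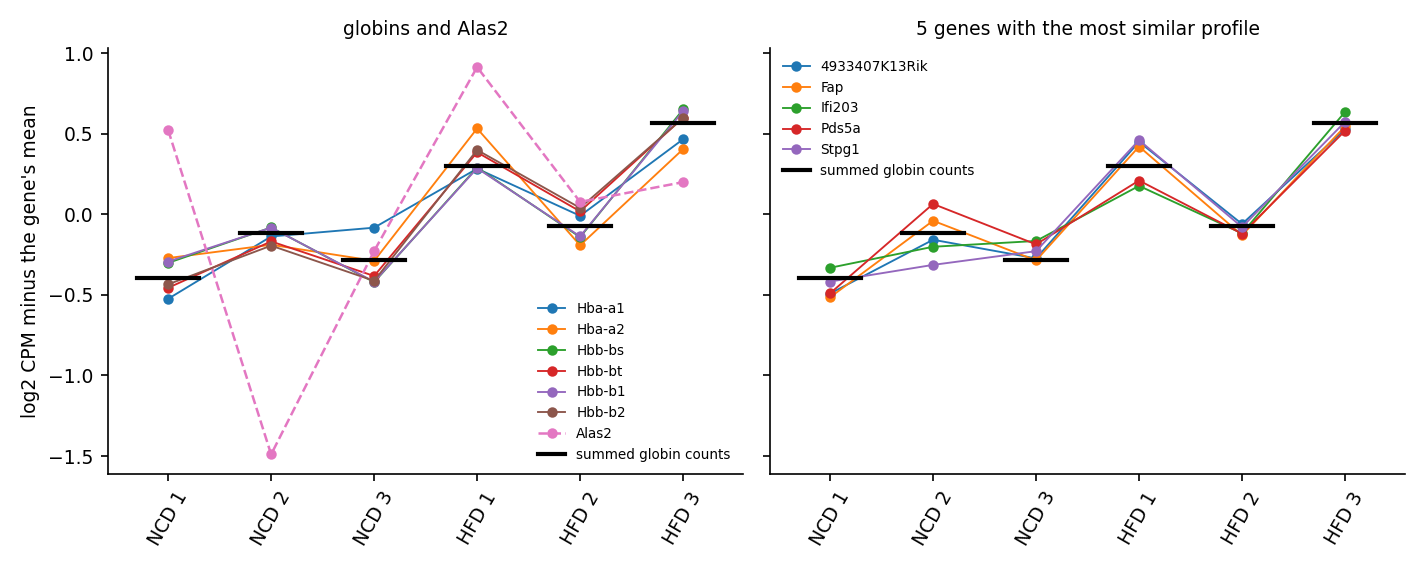
Log2 CPM minus the gene's mean (vertical axis) in each of the 6 libraries for the globin entries and Alas2 (left) and for the 5 genes outside the group with the most similar profile (right), with thick bars for the summed globin counts. The globin lines run together from -0.40 in NCD replicate 1 to 0.57 in HFD replicate 3 for their sum, while Alas2 drops to -1.49 in NCD replicate 2.

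Most other transcripts particular to red cells were at or near 0 counts. Of 8 embryonic and theta globin symbols, 6 were listed and 0 were tested, since Hba-x, Hbb-bh1 and Hbb-bh2 had no count, Hbb-y and Hbq1b each had 1 count in all, and Hbq1a had 0 to 6 per library. A count of 0 allows up to 3 counts, or 0.316 to 0.432 CPM depending on the library. Among the defining red cell markers, Slc4a1 (the anion exchanger band 3) and Epb4.2 (band 4.2) were at 0 in all libraries.

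Of 31 red cell protein genes listed in the files, 6 were at 0 throughout and 18 were tested, 0 with an unadjusted p under 0.05 and with a median log2 fold change of -0.04. The diets overlapped for all 18, where they did not for 8.81% of all genes tested. Ermap, under the filter on low counts, had 1, 4 and 0 counts in NCD and 6, 6 and 4 in HFD, higher in HFD without overlap on CPM. Most of the 18 are also used by brain cells, such as Add2 (adducin), at 239 ± 39.7 CPM in NCD and 230 ± 19.3 CPM in HFD. Among the regulators of red cell formation, Gata1 and Gfi1b had no count and Klf1 had 0 to 5. The 8 regulators tested, among them Zbtb7a and Bcl11a, had a median of -0.02 and 0 at an unadjusted p under 0.05.

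The enzymes of heme synthesis outside Alas2 were all measured, and 0 of 8 had an unadjusted p under 0.05. Their median log2 fold change was 0.09. Alas1, the general first enzyme, was at 38.5 ± 0.943 CPM in NCD and 36.9 ± 2.04 CPM in HFD (SD, n = 3 each).

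Of 14 genes of heme transport and breakdown, 1 had an unadjusted p under 0.05. This was Mfsd7b, the heme exporter now named Flvcr1, with 11.2 ± 0.919 CPM in NCD and 8.21 ± 1.11 CPM in HFD, a log2 fold change of -0.45 with a standard error of 0.20 (edgeR, unadjusted p = 0.0378, adjusted p = 0.979). The unadjusted edgeR p of Mfsd7b was 0.106 without HFD replicate 3, 0.118 without NCD replicate 2, 0.0537 without NCD replicate 3 and 0.0669 without HFD replicate 2, and it was 0.0621 in DESeq2. Hmox1, the inducible heme oxygenase, had 5, 13 and 15 counts in NCD and 11, 12 and 1 in HFD, the lowest count being that of HFD replicate 3. Of 11 iron genes, Fth1, the ferritin heavy chain, had an unadjusted p of 0.0371 in the edgeR fit, with a log2 fold change of 0.24, a standard error of 0.10 and an adjusted p of 0.979. Its diets overlapped, at 2112, 1961 and 1740 CPM in NCD and 2129, 2105 and 2616 CPM in HFD. Without HFD replicate 3 the log2 fold change of Fth1 was 0.13 with an unadjusted edgeR p of 0.163. That p was 0.140 without NCD replicate 3, 0.0583 without NCD replicate 2, 0.0682 with the replicate number as a block and 0.0565 with library size alone, and limma after quantile normalization gave 0.155.

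Of the 4 globins of other cells, the 2 tested had overlapping levels in the diets. Ngb (neuroglobin) was at 6.43 ± 0.803 CPM in NCD and 7.26 ± 1.60 CPM in HFD, and Cygb (cytoglobin) at 132 ± 17.3 CPM and 121 ± 10.1 CPM (SD, n = 3 each). Their log2 fold changes were 0.18 and -0.12. Mb (myoglobin), under the filter on low counts, had 0, 1 and 1 counts in NCD and 2, 2 and 1 in HFD. Of 13 hypoxia response genes tested, 0 had an unadjusted p under 0.05 and the median was 0.01. Of 10 forebrain neuron genes, 0 had such a p, with a median of -0.01.

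Transcripts of other blood and vessel cells were set beside the globins. The platelet markers Pf4, Ppbp, Itga2b and Gp9 summed to 6.26 to 8.32 CPM in NCD and 7.49 to 8.39 CPM in HFD, and 0 of 4 platelet genes tested had an unadjusted p under 0.05. The lymphocyte markers summed to 0.527 to 1.83 CPM in NCD and 0.288 to 0.962 CPM in HFD, with Ms4a1 at 0. The neutrophil markers S100a8, S100a9, Ngp and Camp summed to 3.79 to 4.64 CPM in NCD and 4.92 to 9.07 CPM in HFD. Within this sum Ngp went the other way, lower in every HFD library. The part of these cells in the globin difference was not tested.

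Of the 10 neutrophil genes, 2 were tested, S100a8 and S100a9, and 1 of them had an unadjusted p under 0.05. S100a8 had 15, 15 and 16 counts in NCD and 11, 24 and 31 in HFD, with a log2 fold change of 0.71 and a standard error of 0.42. S100a9, a calcium-binding protein of neutrophils, had 10, 12 and 13 counts in NCD and 33, 17 and 26 in HFD, with no overlap. Its log2 fold change was 1.35 with a standard error of 0.43 (edgeR, unadjusted p = 0.00623, adjusted p = 0.979), and the unadjusted p was 0.0599 without HFD replicate 1. Ngp, a granule protein, was lower in HFD, with 6, 12 and 6 counts in NCD and 1, 1 and 3 in HFD, under the filter on low counts. Ltf, also under that filter, had 4, 1 and 4 counts in NCD and 0 in each HFD library.

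Endothelial and mural genes were also given by list. Of 12 endothelial genes, 1 had an unadjusted p under 0.05, with a median log2 fold change of 0.17. It was Ly6a, a surface antigen of brain endothelium, at 20.7 ± 0.834 CPM in NCD and 27.6 ± 1.37 CPM in HFD (edgeR, n = 3 each, unadjusted p = 0.00657, adjusted p = 0.979). Of 8 mural cell genes, 1 did, Rgs5, a pericyte gene, with a log2 fold change of 0.32 and a standard error of 0.14 (edgeR, unadjusted p = 0.0365, adjusted p = 0.979), and the median was 0.16. The unadjusted edgeR p of Rgs5 was 0.13 without HFD replicate 3, 0.102 without NCD replicate 1, 0.0741 without NCD replicate 3, 0.0537 with the replicate number as a block and 0.0505 with library size alone, and it was 0.0584 in DESeq2. The endothelial markers Cldn5, Pecam1, Cdh5 and Slco1a4 summed to 61.0 to 64.9 CPM in NCD and 59.3 to 70.2 CPM in HFD, and the mural markers to 62.6 to 69.7 CPM and 69.8 to 81.8 CPM. Slco1a4 was the largest part of the endothelial sum, at 41.0 CPM in NCD and 39.6 CPM in HFD. Cldn5 was at 7.84 ± 0.515 CPM in NCD and 9.73 ± 0.447 CPM in HFD (edgeR, unadjusted p = 0.137). Of the 12 endothelial genes, 2 were higher in HFD without overlap and 0 lower, where 4.31% of all genes tested were higher. The part of vessel content in the globin difference was not tested.

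Of 9 transcripts that liver makes for blood plasma, 6 were tested, and 5 of these had an unadjusted p under 0.05 in edgeR, where 3.68% of all genes tested did. All 5 were lower in HFD, the median over the 6 was -1.71 on the log2 scale, and 0 passed after adjustment. The diets overlapped for Alb, Apoa1 and Apoa2. Alb (albumin) had 109, 249 and 37 counts in NCD and 14, 50 and 13 in HFD, a log2 fold change of -2.19 with a standard error of 0.52. Fgb (fibrinogen beta chain) had 29, 35 and 14 counts in NCD and 2, 11 and 3 in HFD. The highest counts of both were in NCD replicate 2. Without that library the log2 fold change was -1.42 for Alb, -0.35 for Apoa1 with an unadjusted edgeR p of 0.436, and -0.78 for Apoa2 with a p of 0.243, so that 3 of the 5 kept a p under 0.05. Without HFD replicate 3 the p of Apoa2 was 0.121, and it was 0.0782 without NCD replicate 1 and 0.0577 without HFD replicate 1. That of Apoa1 was 0.0534 without HFD replicate 1, 0.105 without HFD replicate 2 and 0.0701 with the replicate number as a block. In limma after quantile normalization the unadjusted p was 0.0831 for Apoa1 and 0.0916 for Apoa2, and in DESeq2 it was 0.0521 for Ahsg. By count, NCD replicate 3 had fewer Alb counts than HFD replicate 2. In HFD replicate 3, the library with the most globin, Ahsg had 0 counts. Ttr, which choroid plexus makes too, was at 1128 ± 125 CPM in NCD and 1132 ± 69.0 CPM in HFD. Over all lists, 116 genes outside the group were tested, 10 had an unadjusted p under 0.05 (7 to 12 under the alternatives), where 3.68% of all genes tested did, and 0 passed after adjustment.

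**Figure D4:**
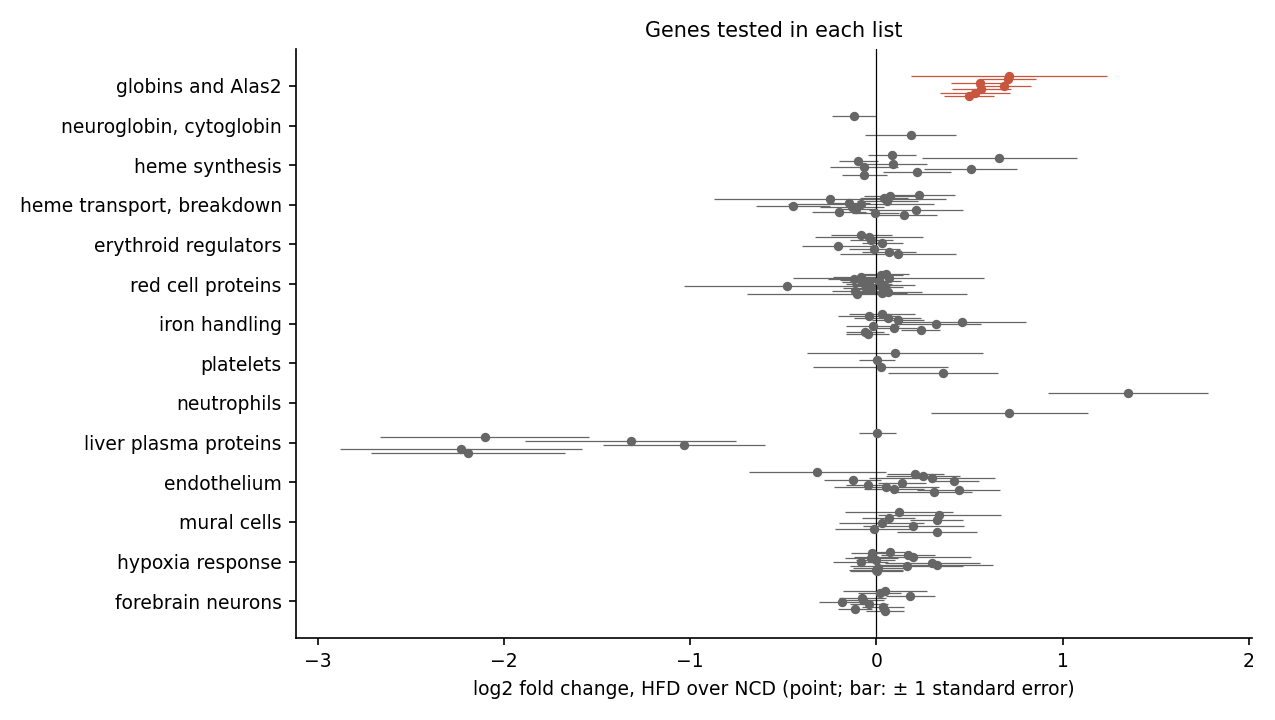
Log2 fold change of HFD over NCD (horizontal axis, bar ± 1 standard error) of each gene tested in 14 lists, with the globin entries and Alas2 in red and the other lists in grey. The 7 red points lie between 0.49 and 0.71, the 18 red cell protein genes between -0.48 and 0.07, and 5 of 6 liver plasma proteins between -2.23 and -1.03.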

How the data were processed

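QuantSeq 3′ libraries of forebrain RNA from 3 NCD and 3 HFD samples, grouped by the diet label, were analysed. Per the study's methods, the authors mapped trimmed reads to mm10 with Bowtie2 and counted unique and multiple alignments with bedtools. The deposited values are whole-number read counts per gene without normalization. The gene annotation, the strand setting and the tool versions are not given in the sources used here. No column of the tables was left unused, and each table holds 1 library.

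The fit used edgeR 4.0.16 under R 4.3.3 (filterByExpr at 10 counts, 15 in total, TMM, glmQLFit and glmQLFTest, Benjamini-Hochberg adjustment, threshold 0.05), and each standard error is the ratio of the log2 fold change to the square root of its F value. Of the 23282 entries, 4346 had no count in any library. CPM used TMM library sizes, and profiles used log2 CPM with a prior count of 2. The statistics were tested on simulated data. limma 3.58.1, DESeq2 1.42.0, other scalings and filters, a replicate block and leaving out each library were alternatives.

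The globin genes, Alas2 and all gene lists were chosen with earlier results of these data known. Named genes are these, list genes with an unadjusted p under 0.05 or a high mean CPM, defining cell markers, and the 5 genes with the nearest profile. Genes named beyond this, Hmox1, Klf1, Ngp, Ltf, Ermap and Apex2 among them, were chosen after their values were seen. Some list genes are not reported here. List symbols were matched to older names with RefSeq synonyms. Transcripts and positions are from GENCODE vM21, and upstream sequences from RefSeq GRCm38.p6. Figures were drawn with Python 3.11.15 and matplotlib 3.10.9.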

Additional observations from a re-analysis of the deposited data

How the results depend on the processing

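The log2 fold changes of the 7 entries kept their sign under all alternatives that gave a value, from 0.37 to 0.61 for Hba-a1, 0.38 to 0.73 for Hba-a2, 0.35 to 0.74 for Hbb-bs, 0.54 to 0.83 for Hbb-bt, 0.35 to 0.73 for Hbb-b1, 0.57 to 0.85 for Hbb-b2 and 0.28 to 1.34 for Alas2. With at least 10 counts required in every library Alas2 was not tested. The log2 ratio of summed globin was 0.39 to 0.70. Leaving out 1 library moved the difference in alpha over beta (HFD minus NCD) between -0.17 and 0.073 and that in the Hba-a2 share between -0.40 and 0.47 percentage points. The difference in the Hbb-bt share stayed between 0.92 and 2.01 percentage points. The genes with an adjusted p under 0.05 numbered 0 in edgeR, 2 in DESeq2 and 23 without the filter on low counts, and 0 to 3 when 1 library was left out, the 3 coming without NCD replicate 3. List genes with an adjusted p under 0.05 numbered 2 without the filter (Alb and Ahsg) and 0 to 1 when 1 library was left out (Alb, without NCD replicate 3). Genes at an unadjusted p under 0.05 numbered 902 without the filter and 773 without HFD replicate 1. The causes were not tested. Deviations of same-numbered libraries correlated at -0.030, 0.052 and -0.057, so the numbers do not pair them. With a replicate block 0 genes passed the adjusted threshold, 371 had an unadjusted p under 0.05, and the log2 fold changes of Hba-a1 and Alas2 were 0.49 and 0.82. Depth limits Alas2, the embryonic globins and the blood cell markers, which had few counts.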
